A study of Oryza sativa with 11 samples.

Results

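A set of 10 starch genes of rice (Oryza sativa) was followed in whole anthers of wild-type (WT) rice and of ostie1-1, a mutant named for OsTIE1. These genes encode subunits of ADP-glucose pyrophosphorylase, which makes the sugar donor of starch synthesis, and enzymes that branch, debranch or phosphorolyse the glucan. The 10 genes were given as a list of MSU locus IDs with names, out of 55986 loci in the table. Of the 10, 9 had values in the table, 6 reached the level needed for testing, and the pullulanase gene PUL (LOC_Os04g08270) was not analysed here. The names are those that came with the IDs. The expression table holds IDs alone and the RefSeq gene table at hand holds no LOC_Os ID, so the pairing was not checked.

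RNA was sequenced from untreated anthers of field-grown plants in 4 groups: WT at anther stage 10 (3 libraries), ostie1-1 at stage 10 (3), WT at stage 12 (3) and ostie1-1 at stage 12 (2). The series asks how the loss of OsTIE1 acts on anther development. The labels name ostie1-1 without saying what the mutation is, and they call the libraries biological replicates without telling plants apart. The spread behind each p is that among these libraries, and may in part be technical. Values are FPKM, a fragment count per transcript length and library size, as the authors deposited them, added up over a locus's transcript models.

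ADP-glucose pyrophosphorylase is a heterotetramer of small and large subunits and commits glucose 1-phosphate to starch. Starch synthases extend the chains, branching enzymes (BE) cut and rejoin them as side branches, and isoamylase and pullulanase trim misplaced branches so that the polymer can pack into a granule. The plastidic phosphorylase adds or removes single glucose units at chain ends. Rice pollen fills with starch late in its development, and starch in the mature grain is a usual test of pollen fertility. In rice, loss of the large subunit AGPL4 has been reported to impair pollen starch and male fertility.

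The libraries had similar depth, 0.914 to 1.17 relative to WT stage 10 replicate 1 as judged from the steps between low values, but absolute read numbers are not known. WT stage 10 replicate 3 was unlike replicates 1 and 2. Over genes, the Pearson r of log2 level was 0.794 and 0.795 to these partners, which reached 0.98 between themselves. To ostie1-1 stage 10 replicates 1 to 3 it was higher, at 0.896, 0.903 and 0.881. In replicate 3 the top 10 loci made up 26.0% of summed FPKM, against 9.63% and 10.7% in replicates 1 and 2. In ostie1-1 at stage 10 that share was 23.6% to 24.3%. Fits without replicate 3 thus leave out the WT stage 10 library nearest to the mutant. A scaling factor per library, 0.729 to 1.31, was divided out before testing. Tapetum marker loci were above 0 in every library (6 of 6 listed, summed FPKM 61.3 to 707), as were 3 of 3 pollen marker loci (11.9 to 197). By locus, the tapetum medians over the libraries ran from 0.698 to 153 FPKM, so that sum rests mostly on the highest loci. Of the 5 listed stamen loci, 2 were at or near 0 throughout and the pistil loci stayed at 0.146 FPKM or below. With stamen loci near 0 in anthers, the low pistil values are not read as absence of pistil tissue.

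Of the 9 genes with values, 3 were too low to test, and all 3 have several transcript models. AGPS1 (LOC_Os09g12660), a small subunit, has 2 models and never exceeded 0.0599 FPKM. AGPL1 (LOC_Os05g50380), a large subunit, has 2 models and never exceeded 0.198 FPKM. BEI (LOC_Os06g51084), a branching enzyme, has 8 models and was listed at 0 in all of them in all 11 libraries. Among all loci, 19.5% of those with several models reached the test, against 40.4% of those with 1 model. A value near 0 for these 3 genes is therefore not read as absence of the transcript. BEIIb also has 2 models, but its first model held nearly all of its signal (77.9 to 183 FPKM) and its second at most 0.289.

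BEIIb (LOC_Os02g32660), a branching enzyme best known from the endosperm, was the most abundant of the 6 tested genes in every group. It measured 130, 132 and 77.97 FPKM in WT stage 10 replicates 1 to 3 and 125, 130 and 160 FPKM in ostie1-1 stage 10. At stage 12 it measured 133, 183 and 129 FPKM in WT and 144 and 138 FPKM in ostie1-1. It lay above 93.6% to 97.05% of the 21279 tested genes in each library. The next gene down was PHOL in both WT groups and in ostie1-1 at stage 12, and ISA1 in ostie1-1 at stage 10, with no overlap with BEIIb in any group.

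Below BEIIb the order of mean levels depended on the group, and most neighbours overlapped. In WT at stage 10 it ran PHOL, ISA1, AGPL3, AGPL4 and BEIIa (means 17.8, 15.1, 8.62, 4.62 and 2.51 FPKM), and each neighbour overlapped the next. In ostie1-1 at stage 10 it ran ISA1, PHOL, AGPL4, BEIIa and AGPL3 (28.2, 11.6, 1.52, 1.38 and 1.02 FPKM). There ISA1 and PHOL were each separate from the gene below, while the last 3 overlapped. In WT at stage 12 PHOL (30.0 FPKM) was clear of AGPL4 (18.2), and AGPL4, AGPL3 (14.9), ISA1 (14.5) and BEIIa (6.14) overlapped in turn. In ostie1-1 at stage 12 PHOL, ISA1, AGPL4 and AGPL3 overlapped in turn (19.9, 14.1, 12.4 and 4.13 FPKM), and both AGPL3 libraries were above both of BEIIa (2.01).

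**Figure D1:**
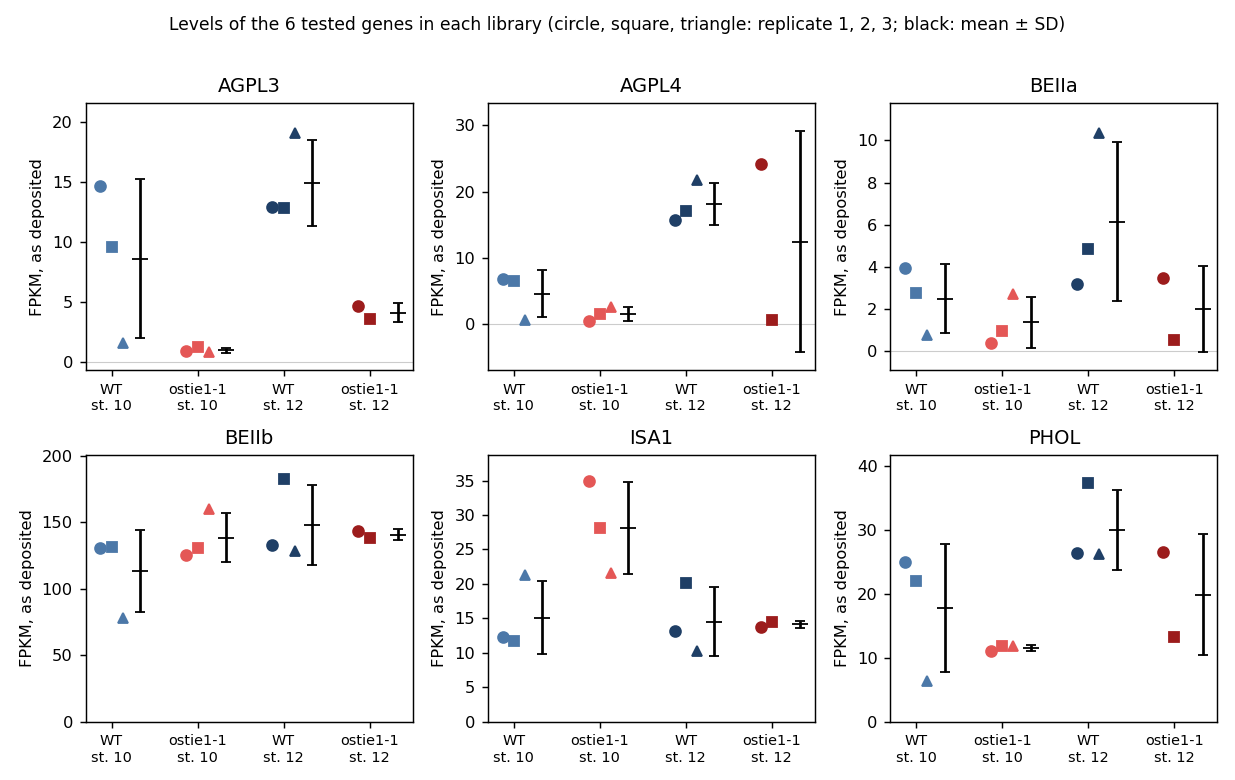
FPKM as deposited of the 6 tested genes (y axis, linear) in the 11 libraries by group (x axis), with symbols for the replicate number and a black mean with SD (n = 3, or 2 for ostie1-1 at stage 12). BEIIb stays between 77.97 and 183 FPKM, while AGPL3 lies at 0.870 to 1.25 FPKM in all 3 ostie1-1 stage 10 libraries and AGPL4 splits at 24.2 and 0.619 FPKM in ostie1-1 at stage 12.

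The large subunit gene AGPL3 (LOC_Os03g52460) was the only one of the 6 whose genotypes did not overlap at either stage. At stage 10 it measured 14.7, 9.57 and 1.59 FPKM in WT and 0.937, 1.25 and 0.870 FPKM in ostie1-1. All 3 mutant libraries were below all 3 WT libraries, as in 6.67% of all genes, but WT replicate 3 lay close to the mutant. The group means were 8.62 ± 6.60 and 1.02 ± 0.201 FPKM (SD, n = 3 each), a ratio of 0.118. On the log2 scale ostie1-1 differed by -1.77 (SE 0.47, 95% confidence interval -2.81 to -0.73) and limma gave an adjusted p = 0.0768, above the threshold of 0.05. This scale, log2(scaled FPKM + 1), understates the ratios of low values.

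At stage 12 AGPL3 measured 12.9, 12.8 and 19.1 FPKM in WT and 4.69 and 3.57 FPKM in ostie1-1, again with both mutant libraries below all WT libraries. Such a separation was common at this stage, where 31.8% of all genes were lower without overlap. The means were 14.9 ± 3.59 (n = 3) and 4.13 ± 0.790 FPKM (n = 2). The log2 fold change was -1.30 (SE 0.53, interval -2.46 to -0.14, limma adjusted p = 0.213). Between the stages, both ostie1-1 stage 12 libraries stood above the 3 at stage 10, with a ratio of means of 4.06 and a log2 fold change of 1.36 (SE 0.53, limma adjusted p = 0.138). Among all genes, 24.4% were higher without overlap between the ostie1-1 stages. In WT the 2 stages overlapped (0.89, SE 0.47, limma adjusted p = 0.448), and the value was 0.30 without WT stage 10 replicate 3.

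Without WT stage 10 replicate 3, the WT library of that stage most like the mutant, AGPL3 passed in 3 comparisons. It fell in ostie1-1 at stage 10 (log2 fold change -2.37, SE 0.31, limma adjusted p = 0.000769) and at stage 12 (-1.31, limma adjusted p = 0.0202), and it rose from stage 10 to 12 in the mutant (1.36, limma adjusted p = 0.0119). The library enters the last 2 of these comparisons only through the spread shared by all groups, the scaling factors and the set of genes tested. Without it 33.7% of all genes passed at stage 10 and 16.8% at stage 12, against 2.89% and 3.52% with it, and 22.9% against 10.8% between stages in ostie1-1. Over 21 alternative settings the stage 10 value of AGPL3 ran from -2.38 to -1.34 with limma adjusted p of 6.41e-06 to 0.296, and it passed in 3 of them. These were the fit without WT stage 10 replicate 3, the fit without it and ostie1-1 stage 12 replicate 2, and the fit with libraries weighted by estimated quality. They are not separate lines of support. The stage 12 value ran from -1.75 to -1.05 and passed only without WT stage 10 replicate 3 (limma adjusted p = 0.0202). The stage effect in the mutant passed there (limma adjusted p = 0.0119) and when only the 2 groups compared were fitted. Fits with 1 library left in ostie1-1 at stage 12 are not counted here as passing.

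AGPL4 (LOC_Os07g13980), the large subunit tied to pollen starch, differed most from library to library, by 52.6-fold between its lowest and highest FPKM. At stage 10 it measured 6.80, 6.46 and 0.600 FPKM in WT and 0.460, 1.48 and 2.63 FPKM in ostie1-1. WT replicate 3 fell within the mutant range, and the other 2 WT libraries were above it. The means were 4.62 ± 3.49 and 1.52 ± 1.09 FPKM, with a log2 fold change of -0.80 (SE 0.85, interval -2.66 to 1.07, limma adjusted p = 0.628).

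At stage 12 AGPL4 measured 15.7, 17.2 and 21.7 FPKM in WT, and 24.2 and 0.619 FPKM in ostie1-1. One mutant library was above every WT library and the other below every WT library, so the group mean of 12.4 ± 16.7 FPKM (n = 2) describes neither. The log2 fold change was -1.29 (SE 0.95, interval -3.37 to 0.80, limma adjusted p = 0.466), and it turned to 0.68 without ostie1-1 stage 12 replicate 2. In WT all 3 stage 12 libraries were above all 3 stage 10 libraries, with a ratio of means of 3.94 and a log2 fold change of 1.92 (SE 0.85, interval 0.06 to 3.79, limma adjusted p = 0.339). Among all genes, 13.1% were higher without overlap between the WT stages. In the mutant the stages of AGPL4 overlapped (1.43, SE 0.95, limma adjusted p = 0.391). Without ostie1-1 stage 12 replicate 2 the value was 3.42 and without replicate 1 it was -0.53, each with 1 library left in that group. Over its 21 alternatives that stage effect ran from -0.53 to 3.42, both ends from such fits.

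Ratios within a library do not depend on how libraries are scaled. AGPL3 and AGPL4 together made up 16.5, 12.2 and 2.81 FPKM per 100 FPKM of BEIIb in WT stage 10 replicates 1 to 3, and 1.12, 2.09 and 2.19 in ostie1-1 stage 10. At stage 12 they made up 21.5, 16.4 and 31.7 in WT, and 20.1 and 3.04 in ostie1-1. All 3 mutant libraries at stage 10 were below all WT libraries, and at stage 12 only ostie1-1 replicate 2 was. Within the pair, AGPL4 held 27.3% to 40.3% in WT at stage 10 and 53.3% to 57.3% in WT at stage 12, with no overlap. In ostie1-1 its share spanned 32.9% to 75.1% at stage 10 and was 83.8% and 14.8% at stage 12. No test was run on these ratios. AGPL1, too low to test, and AGPL2 (LOC_Os01g44220), a low locus of the wider starch list described below, are not part of them.

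The branching enzyme genes differed in steadiness. BEIIb had an SD of 0.26 in log2 level over the 11 libraries (4.59% of tested genes had a lower SD, and the median was 0.60), while BEIIa had 0.83. After scaling, BEIIb measured 108, 111 and 107 in WT stage 10 and 159, 141 and 159 in ostie1-1 stage 10. These groups did not overlap (11.1% of all genes were higher without overlap on this scale), whereas as deposited they did. Its log2 fold change was 0.49 at stage 10 (SE 0.25, interval -0.06 to 1.04, limma adjusted p = 0.314) and 0.30 at stage 12 (SE 0.28, interval -0.31 to 0.92, limma adjusted p = 0.560). The stage 12 value turned to -0.06 with FPKM left unscaled and to -0.16 with TPM. Between stages the values were 0.18 in WT (interval -0.37 to 0.73) and -0.00 in ostie1-1 (interval -0.62 to 0.61).

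BEIIa (LOC_Os04g33460), the isoform known as the widely expressed one, was low. At stage 10 it measured 3.98, 2.77 and 0.777 FPKM in WT and 0.420, 0.971 and 2.74 FPKM in ostie1-1, and the groups overlapped. At stage 12 it measured 3.18, 4.88 and 10.4 FPKM in WT and 3.46 and 0.556 FPKM in ostie1-1, also with overlap. The log2 fold changes between genotypes were -0.45 (SE 0.54, limma adjusted p = 0.671) and -1.07 (SE 0.60, interval -2.39 to 0.26, limma adjusted p = 0.347). The stage 12 value was -0.32 without ostie1-1 stage 12 replicate 2, -1.81 without replicate 1 and -0.61 without WT stage 12 replicate 3. BEIIb held 92.5% to 99.7% of the summed FPKM of the pair in every library, BEI having no usable value.

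The isoamylase gene ISA1 (LOC_Os08g40930), whose loss gives the sugary endosperm, stood on the other side from AGPL3 in the stage 10 libraries. It measured 12.3, 11.8 and 21.2 FPKM in WT and 34.9, 28.1 and 21.5 FPKM in ostie1-1. As deposited every mutant library was above every WT library, though by a margin of 21.5 against 21.2, and after scaling WT replicate 3 (29.1) lay within the mutant range (21.5 to 44.2). As deposited, 11.4% of all genes were higher in the mutant without overlap. The means were 15.1 ± 5.32 and 28.2 ± 6.66 FPKM (n = 3 each). On the log2 scale the difference was 1.04 (SE 0.43, interval 0.09 to 1.99, limma adjusted p = 0.232). Without WT stage 10 replicate 3 it rose (1.53, SE 0.33, limma adjusted p = 0.00685). Over its 21 alternatives the limma adjusted p ran from 7.5e-05 to 0.619, and 3 passed, the same 3 as for AGPL3 at stage 10.

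At stage 12 ISA1 measured 13.1, 20.1 and 10.3 FPKM in WT and 13.8 and 14.4 FPKM in ostie1-1, with the mutant libraries inside the WT range. The log2 fold change was 0.35 (SE 0.48, interval -0.72 to 1.41, limma adjusted p = 0.712). Both ostie1-1 stage 12 libraries were below all 3 of ostie1-1 stage 10 (ratio of means 0.502, log2 fold change -0.96, SE 0.48, limma adjusted p = 0.251). Among all genes, 20.1% were lower without overlap between the ostie1-1 stages. In WT the stages overlapped (-0.27, SE 0.43, limma adjusted p = 0.817).

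PHOL (LOC_Os03g55090), the plastidic phosphorylase gene, measured 25.0, 22.1 and 6.37 FPKM in WT at stage 10 and 11.1, 11.9 and 11.8 FPKM in ostie1-1. The mutant libraries lay close together, between WT replicate 3 and the other WT libraries. At stage 12 it measured 26.5, 37.3 and 26.3 FPKM in WT and 26.6 and 13.2 FPKM in ostie1-1, and ostie1-1 replicate 1 was inside the WT range. The log2 fold changes between genotypes were -0.21 at stage 10 (SE 0.36, interval -1.01 to 0.58, limma adjusted p = 0.771) and -0.28 at stage 12 (SE 0.40, interval -1.17 to 0.60, limma adjusted p = 0.719). The stage 12 value turned to 0.13 without ostie1-1 stage 12 replicate 2. As deposited, both genotypes were higher at stage 12 with no overlap (ratios of means 1.69 and 1.72, limma adjusted p = 0.431 and 0.380). This was so for 13.1% of all genes in WT and 24.4% in ostie1-1. In WT the separation of PHOL was lost after scaling.

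PHOL and ISA1 were also set against each other within each library. The PHOL to ISA1 ratio was 2.03, 1.88 and 0.30 in WT stage 10 and 0.317, 0.423 and 0.549 in ostie1-1 stage 10. It was 2.02, 1.85 and 2.54 in WT stage 12, and 1.93 and 0.914 in ostie1-1 stage 12. WT stage 10 replicate 3 had the lowest ratio of the 11 libraries, just below the 3 mutant libraries of that stage. Ratios are descriptions and were not tested.

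**Figure D2:**
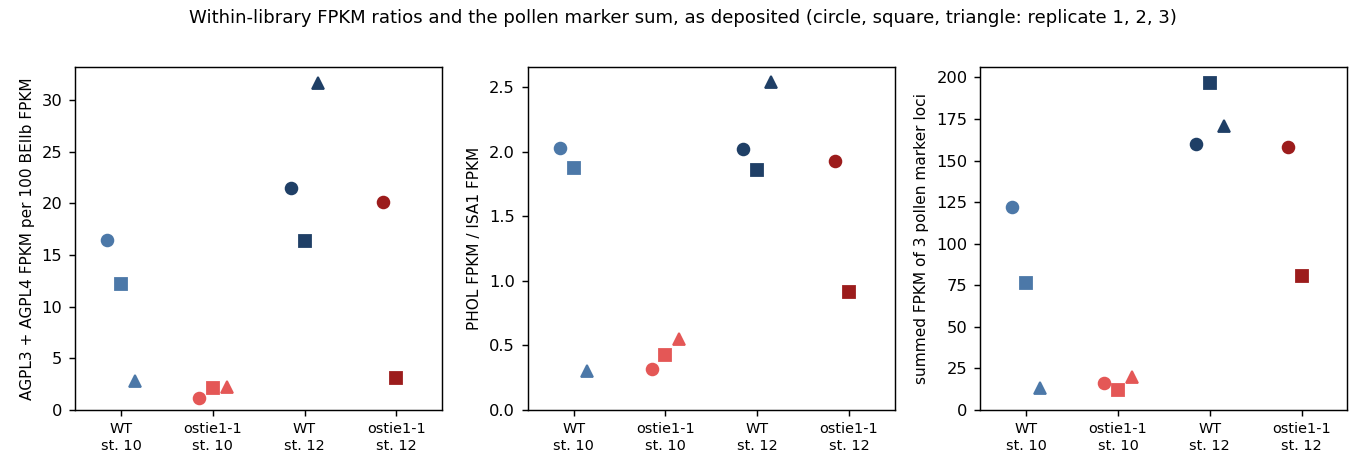
Within each library (points, symbols by replicate number), the summed FPKM of AGPL3 and AGPL4 per 100 FPKM of BEIIb, the ratio of PHOL to ISA1, and the summed FPKM of 3 pollen marker loci, by group. The 3 ostie1-1 stage 10 libraries and WT stage 10 replicate 3 are lowest in the pollen marker sum (11.9 to 19.5) and in the PHOL to ISA1 ratio (0.30 to 0.549).

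Over the 6 tested genes 0 passed in limma in any of the 5 comparisons. Of all tested genes 2.89% passed between genotypes at stage 10, 3.52% at stage 12, 2.59% between stages in WT, 10.8% between stages in ostie1-1 and 0.0188% in the difference of the genotype effect between stages. With libraries weighted by their estimated quality in place of equal weights, 5 of 6 passed at stage 10 (AGPL3, AGPL4 and PHOL lower, BEIIb and ISA1 higher), as did 13531 of 21279 genes. At an unadjusted p below 0.05 there were 2 of 6 members at stage 10 (AGPL3 and ISA1, against 18.7% of all genes) and 1 at stage 12 (AGPL3, 19.7%). There was also 1 between stages in WT (AGPL4, 14%), 1 between stages in ostie1-1 (AGPL3, 24.7%) and 0 in the difference of effects (5.41%). The members' median log2 fold change was -0.33 at stage 10 and -0.67 at stage 12 (all genes 0.00 and 0.06), 0.79 between stages in WT (all genes -0.04) and 0.45 in ostie1-1 (-0.04). Without WT stage 10 replicate 3 the members' median was -0.65 at stage 10 and 0.32 between stages in WT. With ostie1-1 stage 12 replicate 2 left out as well, it turned to 0.18 at stage 12 and was 1.02 between stages in ostie1-1.

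Groups that did not overlap in FPKM were also counted. At stage 10 AGPL3 was lower (6.67% of all genes were, and 8.21% after scaling) and ISA1 higher (11.4%), and at stage 12 AGPL3 was lower (31.8%). Between stages, 2 of 6 were higher in WT (AGPL4 and PHOL, 13.1% of all genes). In ostie1-1, 2 of 6 were higher (AGPL3 and PHOL, 24.4%) and ISA1 was lower (20.1%). On a list of 6 genes these counts are descriptions only.

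**Figure D3:**
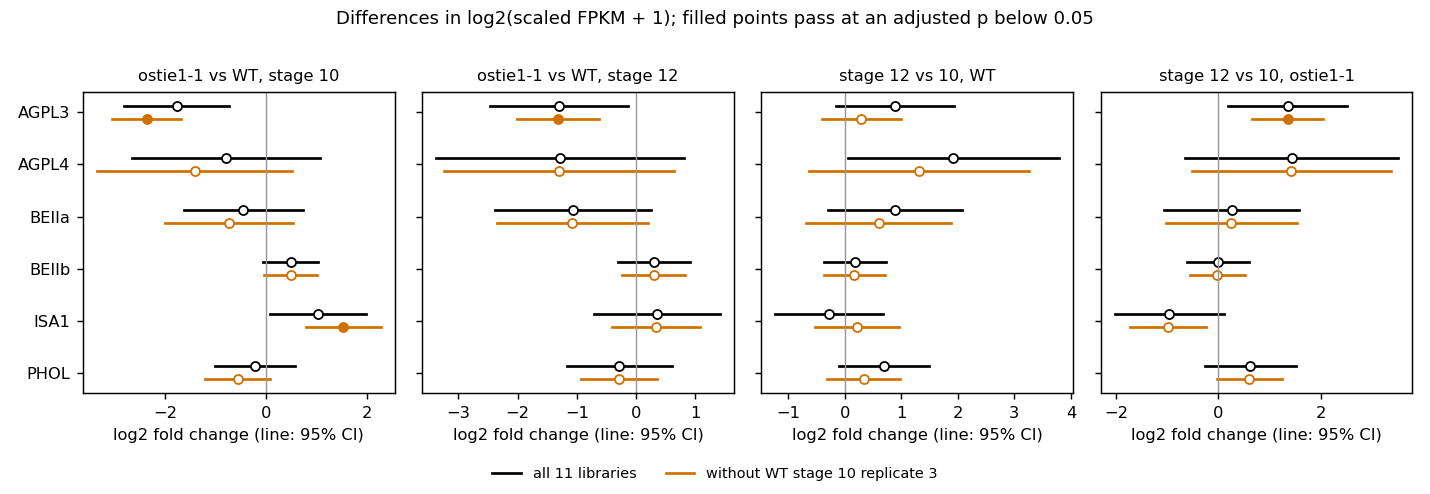
Log2 fold changes of the 6 genes (points) with 95% confidence intervals (lines) in 4 comparisons, with all 11 libraries (black) and without WT stage 10 replicate 3 (orange), on the log2(scaled FPKM + 1) scale. Filled points passed at an adjusted p below 0.05: none with all libraries, and AGPL3 in 3 comparisons and ISA1 at stage 10 without that library.

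WT stage 10 replicate 3 differed from the mean of its 2 partners by -1.78 in log2 level for AGPL3, -1.84 for AGPL4, -1.08 for PHOL, -0.87 for BEIIa and 1.45 for ISA1, and by -0.03 for BEIIb. Ostie1-1 stage 12 replicate 2 differed from replicate 1 by -3.93 for AGPL4, -1.48 for BEIIa and -0.82 for PHOL, and by -0.20, 0.09 and 0.20 for AGPL3, BEIIb and ISA1. The summed pollen markers followed a similar split. They reached 122 and 76.2 FPKM in WT stage 10 replicates 1 and 2 but 12.985 in replicate 3, against 11.9 to 19.5 in ostie1-1 at stage 10. At stage 12 they reached 160 to 197 FPKM in WT, and 158 and 80.6 in ostie1-1 replicates 1 and 2, with none of the 3 loci at 0 in any library.

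Other marker lists moved as well. The summed tapetum markers were 246 and 285 FPKM in WT stage 10 replicates 1 and 2, 705 in replicate 3 and 399 to 707 in ostie1-1 at stage 10. At stage 12 the tapetum sums were 181, 190 and 61.3 FPKM in WT, against 212 and 275 in ostie1-1, with no overlap between genotypes. The stamen list, 2 of whose 5 loci were at or near 0, summed to 64.6 to 77.6 FPKM in WT at stage 10 and 129 to 218 in the mutant. At stage 12 the stamen sums were 36.4 to 49.3 FPKM in WT and 99.6 and 116 in the mutant. The genotypes did not overlap in that sum at either stage, and WT stage 10 replicate 3 (71.7) lay among the WT libraries. The green tissue list (9 of 10 loci in the table, 2 of them at 0 throughout) summed to 1546 FPKM in WT stage 10 replicate 3 and to 160 or less in every other library. At stage 12 that list summed to 125 to 160 FPKM in WT and to 9.33 and 48.7 in ostie1-1. Without both WT stage 10 replicate 3 and ostie1-1 stage 12 replicate 2, a choice made after these values were seen, AGPL3, AGPL4 and ISA1 passed between genotypes at stage 10 (38.1% of all genes did). Between stages in ostie1-1, with 1 stage 12 library left, the log2 fold changes were then 1.47 for AGPL3, 3.42 for AGPL4, 1.02 for PHOL and 1.02 for BEIIa. They were -0.06 for BEIIb and -1.08 for ISA1. The part of pollen, tapetum, stamen or green tissue content in the members' levels was not tested. In bulk anther RNA fewer cells of a type and less RNA per cell cannot be told apart.

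**Figure D4:**
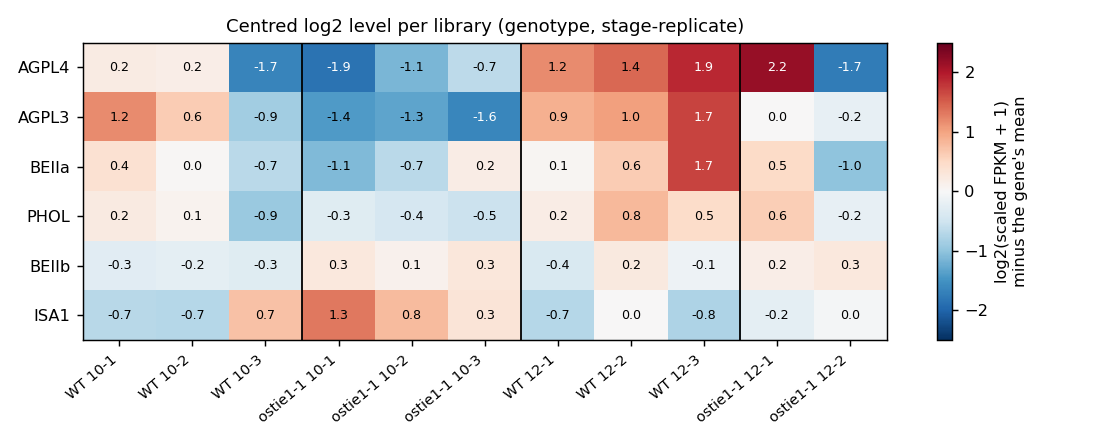
Log2(scaled FPKM + 1) of the 6 genes minus each gene's mean over the 11 libraries (colour and printed value), libraries ordered by group with black lines between groups. AGPL4, AGPL3, BEIIa and PHOL are all below their means in WT stage 10 replicate 3, where ISA1 is 0.7 above its own.

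Likeness between genes was described by the root-mean-square difference of log2 levels over the 11 libraries, each gene centred on its mean. The measure is small for genes of little spread even where they move in opposite directions. Among the members, BEIIb and PHOL (0.56) and BEIIa and PHOL (0.57) had the smallest differences, and AGPL4 and ISA1 (1.99) the largest. In ostie1-1 stage 10, BEIIb stood at 0.27, 0.10 and 0.28 from its mean and PHOL at -0.30, -0.42 and -0.53, so a small value is not read as a shared pattern. AGPL3 was 0.77 from BEIIa and 0.97 from AGPL4. Among 20 candidates, members and tested loci of the wider starch list, the nearest to AGPL3 was the listed locus LOC_Os10g30156 (0.74), and the nearest to each of the other 5 was also a listed locus (0.41 to 0.74).

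The wider list held 28 further loci of starch and sucrose metabolism, of which 15 were tested. At stage 10, 1 of 15 fell in ostie1-1 and 0 rose, against 0.54% and 2.35% of all genes. It was LOC_Os10g30156, at 25.0, 25.5 and 10.1 FPKM in WT, while the mutant had 6.12, 6.94 and 6.98 FPKM (log2 fold change -1.20, SE 0.27, limma adjusted p = 0.0409). At stage 12, 0 of 15 passed in limma (3.52% of all genes did) and 2 had an unadjusted p below 0.05 (19.7% of all genes). The smaller p was that of LOC_Os01g44220, named AGPL2 in the list, which was higher in ostie1-1. It measured 2.18, 1.52 and 1.67 FPKM in WT and 5.06 and 3.17 in the mutant (log2 fold change 1.10, SE 0.32, limma adjusted p = 0.0976). Its genotypes did not overlap (17% of all genes were higher without overlap). The other went the opposite way. LOC_Os10g30156 measured 21.3, 22.5 and 16.2 FPKM in WT, with mutant values of 8.78 and 6.18 (-0.98, limma adjusted p = 0.113). In both stages every WT library of this locus was above every mutant library, as for AGPL3. Among all genes, 6.67% were lower without overlap at stage 10 and 31.8% at stage 12.

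Between stages, 0 of 15 listed loci passed in WT in limma (2.59% of all genes did), with 5 at an unadjusted p below 0.05 (14% of all genes), and 3 rose in ostie1-1, against 7.79% of all genes that rose. Among those 3, LOC_Os02g02560 measured 12.0, 9.30 and 12.2 FPKM at stage 10 and 88.6 and 29.2 at stage 12 (log2 fold change 2.08, SE 0.45, limma adjusted p = 0.0134). LOC_Os01g44220, a locus with 7 models and low values, measured 0.724, 0.387 and 1.22 FPKM at stage 10 and 5.06 and 3.17 at stage 12 (1.56, SE 0.32, limma adjusted p = 0.0112). The median log2 fold change of the list was -0.13 and -0.16 between genotypes at stages 10 and 12, and 0.38 and 0.46 between stages in WT and ostie1-1. Without WT stage 10 replicate 3 it was -0.05 at stage 10 and 0.56 between stages in WT. With ostie1-1 stage 12 replicate 2 left out as well, it turned to 0.52 at stage 12 and was 1.28 between stages in ostie1-1. For the difference of the genotype effect between stages, 0 of 15 passed in limma (1 at an unadjusted p below 0.05, against 5.41% of all genes).

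The genotype effect on the members was not shown to differ between stages. The difference, stage 12 minus stage 10, was 0.47 for AGPL3 (SE 0.71, interval -1.09 to 2.03), -0.49 for AGPL4 (SE 1.27, interval -3.29 to 2.31) and -0.69 for ISA1 (SE 0.65, interval -2.12 to 0.74). Without WT stage 10 replicate 3 it was 1.06 for AGPL3 (interval 0.08 to 2.04, limma adjusted p = 0.309) and -1.19 for ISA1 (interval -2.24 to -0.14, limma adjusted p = 0.288). These 2 of 6 then had an unadjusted p below 0.05, as did 14.6% of all genes, and 0 passed. With all libraries the difference for BEIIa was -0.62, for BEIIb -0.19 and for PHOL -0.07. Each of the 6 had a limma adjusted p = 0.9999 with all libraries. For AGPL4 the interval allows differences of several fold in either direction.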

How the data were processed

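The authors deposited FPKM per MSU transcript model. The submitters' processing notes name HISAT2 2.2.0, featureCounts and the IRGSP-1.0 build. The step from counts to FPKM, the filters and the treatment of shared reads are not given in the sources used here. Of 66338 models, 185 have another ID form and were kept as single loci. FPKM were summed per locus. Below an FPKM of 0.3, 91.6% to 94.2% of a library's ratios to the first WT stage 10 library equalled whole-number ratios up to 12 (log2 tolerance 0.002), which gave the relative depths.

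Libraries were divided by median-of-ratios factors over the tested loci, which reached FPKM 1 in 2 or more libraries (21279 genes) and transformed as log2(FPKM + 1). limma 3.58.1 (R 4.3.3) fitted 1 mean per group to all 11 libraries with a trended variance. P-values were Benjamini-Hochberg adjusted across all tested genes, with 0.05 as the threshold. The fit was tested on simulated data with independent noise and no outlying library. That simulation does not cover a library such as WT stage 10 replicate 3. Members, lists and marker loci were chosen with earlier results of these data known, and list loci come from general knowledge, unchecked against an annotation. All 10 members are named. Of the wider list, the locus nearest to AGPL3 and those with the smallest adjusted p that passed are named, at most 2 in a direction. The loci nearest to other members and a further locus that passed between stages in ostie1-1 are not named. Alternatives covered scaling, pseudocount, filters, weights, a replicate block, transcript models and left-out libraries.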

Additional observations from a re-analysis of the deposited data

How the results depend on the processing

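No member passed in the fit with equal weights and all libraries. Of 624 refits of single members 573 kept direction and side of the threshold, 17 came to pass and 34 changed sign. The 17 include comparisons with 1 library left in ostie1-1 at stage 12. Array weights brought 5 members past the threshold at stage 10, where 13531 of all genes also passed. Fitting the compared groups alone brought 1 (AGPL3) between stages in ostie1-1, where 2643 of all genes also passed. Leaving out 1 library gave 0 to 2 members at stage 10, 0 to 1 at stage 12 and 0 to 1 between stages in ostie1-1, and 0 in the other comparisons. Leaving out both WT stage 10 replicate 3 and ostie1-1 stage 12 replicate 2, chosen after seeing the values, gave 3 at stage 10 (AGPL3 and AGPL4 lower, ISA1 higher). It left 1 library in ostie1-1 at stage 12, so no count is given for comparisons with that group.

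The numbers of all genes passing (615, 750, 551, 2288 and 4, for the genotypes at stages 10 and 12, the stages in WT and in ostie1-1, and the difference of effects) moved as follows. Array weights gave 13531, 1132, 2344, 4013 and 143. Without the 2 libraries the counts were 7923 between genotypes at stage 10 and 664 between stages in WT. The compared groups alone gave 98, 1782 and 289 for the first 3, and 2643 between stages in ostie1-1. TPM gave 499 at stage 12 and a pseudocount of 0.1 gave 283. No filter gave 1164 at stage 12, 62 between stages in WT and 196 for the difference. The difference count was 7 unscaled, 0 with TPM, with a pseudocount of 0.1 or with the block, and 1 with a filter of 3 libraries. Left-out libraries gave 170 to 7120, 203 to 3538, 3 to 580, 611 to 4841 and 0 to 16. Unscaled FPKM moved the median of all genes to -0.13, -0.21 and 0.14 and TPM to -0.20, -0.30 and 0.12 in the first 3 comparisons.

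The replicate block lowered the stage 10 count to 332 and changed no member's call. Same-numbered libraries correlated at -0.47 to 0.15 in their deviations from group means, over 0.1 in 2 of 15 pairs. These values give no sign of pairing by number, but groups of 2 or 3 libraries cannot exclude it.

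Sign changes of BEIIb were -0.056 (unscaled) and -0.16 (TPM) at stage 12, and 0.031 (unscaled), 0.00072 (no filter), 0.063 (weights) and 0.025 (the compared groups alone) between stages in ostie1-1. ISA1 turned to -0.084 at stage 12 with TPM and to 0.22 between stages in WT with weights. The PHOL difference of effects turned to 0.28 with weights. Without the 2 libraries, AGPL4 and PHOL turned to 0.67 and 0.12 at stage 12, ISA1 to 0.22 between stages in WT, and the differences of effects to 2.09 (AGPL4), 0.41 (BEIIa) and 0.68 (PHOL). Leaving out 1 library gave -3.25 to 0.68 (AGPL4) and -0.69 to 0.13 (PHOL) at stage 12, -0.52 to 0.22 (ISA1) between stages in WT, and -0.53 to 3.42 (AGPL4), -0.47 to 1.02 (BEIIa) and -0.075 to 0.046 (BEIIb) between stages in ostie1-1. For the difference of effects it gave -2.46 to 1.48 (AGPL4), -1.37 to 0.13 (BEIIa) and -0.49 to 0.34 (PHOL). The cause was not tested. Absolute depth is unknown, so no counting error is given.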
